A study of Mus musculus with 18 samples.

Results

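Citrate and zinc handling was followed through 9 genes. They were chosen by name for their roles in the prostate, with earlier results of these data known. They were Cs, Aco1, Slc25a1 and Acly for citrate, Slc39a1, Slc30a2 and Slc30a4 for zinc transport, and Mt1 and Mt2 for zinc binding. Each of the 4 deposited tables lists 55469 genes. All 9 genes were found in every table and passed the filter on low values, a mean normalized count of at least 10.

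The RNA came from ventral and lateral prostate lobes, taken from male, littermate-matched C56NL/6N mice and gave 18 libraries in 6 groups of 3. WT mice (ELAC2+/+), KO mice (ELAC2-/-) and A537T mice (ELAC2A537T) were taken at 10 and 30 weeks of age. KO mice lost exon 8 of Elac2 to a prostate-specific Cre (Pb-Cre), so cells of the lobes that do not express the Cre kept the gene. A537T mice carried a missense variant of ELAC2, an alanine changed to a threonine, put into the mouse genome by CRISPR-Cas9. A table pairs 1 mutant group with WT of the same age, so both mutant lines share their 3 WT libraries at each age. The tables were normalized separately, also gene by gene, so that a WT library has slightly different values in each, and every fold change and test was made inside 1 table. Each limma p-value sets a group difference against the spread between these libraries, moderated over all genes. The p-values of both lines at an age use the same WT libraries and are not independent.

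The secretory epithelium of the prostate is known for building up citrate and zinc and releasing both into the prostatic fluid. Citrate synthase (Cs) makes citrate in mitochondria, and the zinc that these cells take up is known to slow its oxidation. Zinc importers of the ZIP family (Slc39a genes) bring zinc into the cytosol, exporters of the ZnT family (Slc30a genes) carry it into vesicles or out of the cell, and metallothioneins bind it. Metallothionein genes respond to zinc through metal response elements, short promoter sequences bound by the factor MTF1.

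The promoters of the metallothionein genes are shown because Mt1 and Mt2 had the lowest levels relative to WT of the 9 genes at 30 weeks in A537T. Capitals mark the letters TGCGCNC or TGCACNC, the core of the metal response element, on either strand. The 250 bases before the RefSeq start held 1 such match for Mt1, 3 for Mt2, 2 each for Slc30a2 and Slc30a4, and 0 for the other 5 genes. The Slc30a2 window (chr4:134343216-134343465) lay wholly inside its GENCODE gene, which begins at 134343181, so its matches are not upstream of that gene model. The windows of Aco1, Slc39a1 and Mt1 ran partly into theirs. At least 1 match was present in 21.4% of 32851 promoter windows of this length, and at least 2 in 5.17%.
Mt1 promoter, GRCm38.p6, chr8:94178839-94179088, forward strand: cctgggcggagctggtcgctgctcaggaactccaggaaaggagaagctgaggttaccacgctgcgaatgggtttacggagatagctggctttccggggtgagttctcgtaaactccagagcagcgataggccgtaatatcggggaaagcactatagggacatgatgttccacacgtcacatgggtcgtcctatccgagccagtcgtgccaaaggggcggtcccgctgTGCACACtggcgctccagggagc
Mt2 promoter, GRCm38.p6, chr8:94172368-94172617, forward strand: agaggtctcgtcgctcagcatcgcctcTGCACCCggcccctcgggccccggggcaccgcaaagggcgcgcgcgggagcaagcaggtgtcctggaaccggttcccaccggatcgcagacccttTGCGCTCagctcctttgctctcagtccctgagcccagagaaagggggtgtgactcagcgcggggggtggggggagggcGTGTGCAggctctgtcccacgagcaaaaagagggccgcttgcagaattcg

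Both genes lie on chromosome 8 and their annotated first exons begin before a TATA box, so further matches fall inside the GENCODE first exon. Mt1 had 4 matches in the 128 bases between the start of its first exon and TATAAA, and Mt2 had 3 in 89 bases. They are printed with 4 bases on each side and with the GRCm38 positions of the forward strand. A match of letters is a description and not a bound site.
Mt1, 119 bases before TATAAA, chr8:94179087-94179101: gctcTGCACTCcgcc
Mt1, 101 bases before TATAAA, chr8:94179105-94179119: aaagTGCGCTCggct
Mt1, 37 bases before TATAAA, chr8:94179169-94179183: tgctGGGTGCAaacc
Mt1, 23 bases before TATAAA, chr8:94179183-94179197: ccttTGCGCCCggac
Mt2, 77 bases before TATAAA, chr8:94172672-94172686: gggcGTGTGCAggcg
Mt2, 58 bases before TATAAA, chr8:94172691-94172705: gggcGCGTGCAtggt
Mt2, 24 bases before TATAAA, chr8:94172725-94172739: ctttTGCGCTCgacc

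The libraries differed in content beyond genotype, which bears on several of the 9 genes. Libraries are named by their numbers in the tables, such as 10AF. The 32 skeletal muscle genes took 4.13%, 6.86% and 13.3% of normalized counts in the WT libraries 10AF, 11AF and 12AF at 10 weeks. They took 0.105%, 2.17% and 0.0916% in the KO libraries 13AF, 14AF and 15AF and 4.55%, 3.40% and 1.70% in the A537T libraries 16AF, 17AF and 18AF. At 30 weeks they took 0.0261 to 0.0927%.

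Of 11 seminal vesicle genes, 10 were matched. Their share at 10 weeks was 4.64% in 10AF, 1.77% in 11AF and 0.000818% in 12AF. The KO libraries of that age held between 6.56% and 10.3%, and the A537T libraries between 0.0375% and 0.192%. At 30 weeks no WT library exceeded 0.000353%, whereas 4AF held 8.53%, 6AF 6.32%, 7AF 7.24% and 9AF 9.17%. The other library of each mutant group held almost none, with 7.13e-05% in 5AF, where 5 of the 10 genes were at 0, and 7.99e-05% in 8AF, where 7 were at 0.

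None of the 10 prostate luminal genes was at 0 in any library. Their share at 10 weeks was 1.11 to 1.32% in KO, below every WT library (1.35 to 2.65%). Of these genes 4 had positive and 6 negative log2 fold changes in KO at that age (median -0.085). At 30 weeks 10 of 10 were negative in KO and 9 of 10 in A537T (medians -0.63 and -0.68), but the shares overlapped WT. They were 1.54% in 4AF, 4.68% in 5AF and 2.03% in 6AF against 2.57 to 3.99% in WT, and 2.02% in 7AF, 3.37% in 8AF and 1.54% in 9AF against 2.61 to 3.92%. Macrophage and lymphocyte genes at 30 weeks took 0.00886 to 0.0197% in A537T and 0.00606 to 0.00994% in KO, each above every WT library of its table (at most 0.00608% and 0.00595%). Of the 10 genes of this list only 5 passed the filter on low values in each comparison. In KO 3 of them were higher and 2 lower (median log2 fold change 0.11), and in A537T 5 were higher (median 1.03). Adipocyte genes at 10 weeks took 0.0394 to 0.0968% in KO, below WT (0.170 to 0.241%), and smooth muscle genes overlapped between groups there (0.399 to 0.536% and 0.156 to 0.496%). Counts summed to between 6569642 and 11225281 per library. Elac2 had normalized counts of 111 to 119 in KO and 124 to 166 in WT at 10 weeks, and of 98.4 to 151 and 149.6 to 194 at 30 weeks. These groups lay apart at 10 weeks and overlapped at 30 weeks. The log2 fold changes in KO were -0.31 (SE 0.16, limma adjusted p = 0.325) and -0.43 (SE 0.20, limma adjusted p = 0.478). The A537T libraries held 158 to 173 at the younger age and 114 to 189 at the older, overlapping WT. In a bulk sample, fewer cells of a type and less RNA per cell cannot be told apart.

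No gene passed an adjusted p of 0.05 in any of the 4 comparisons with limma on log2(normalized count + 1), so 0 of the 9 were called, against 0.00% of all tested genes in each comparison. On the recovered counts edgeR also called 0 genes in each, and DESeq2 called 715 in KO and 87 in A537T for the younger mice and 285 and 472 for the older. Unadjusted p fell under 0.05 for 2930 of 15089 genes (19.4%) in KO at 10 weeks, 973 of 15131 (6.43%) in A537T at 10 weeks, 1616 of 14729 (10.97%) in KO at 30 weeks and 2016 of 14789 (13.6%) in A537T at 30 weeks. Among the 9 genes these were Cs and Slc30a2, none, Mt1 and Mt2, and then Mt1, Mt2 and Slc25a1. Because the log scale carries an offset of 1, its fold changes understate those of low genes.

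The groups of 3 did not overlap for 2 of the 9 genes in KO at 10 weeks, where Cs was lower and Slc30a2 higher, against 25.97% of all tested genes. They did not overlap for 1 in A537T at 10 weeks (Cs, lower) against 11.9%, and for 1 in KO at 30 weeks (Mt1, lower) against 16.3%. In A537T at 30 weeks they did not overlap for 4 of the 9, with Slc25a1, Mt1 and Mt2 lower and Slc30a2 higher, against 18.6%. The median log2 fold change of the 9 genes was -0.33 (KO) and 0.012 (A537T) for the younger mice and -0.20 and -0.059 for the older, beside medians of all tested genes of -0.0061, 0.011, -0.0067 and -0.0052.

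**Figure D1:**
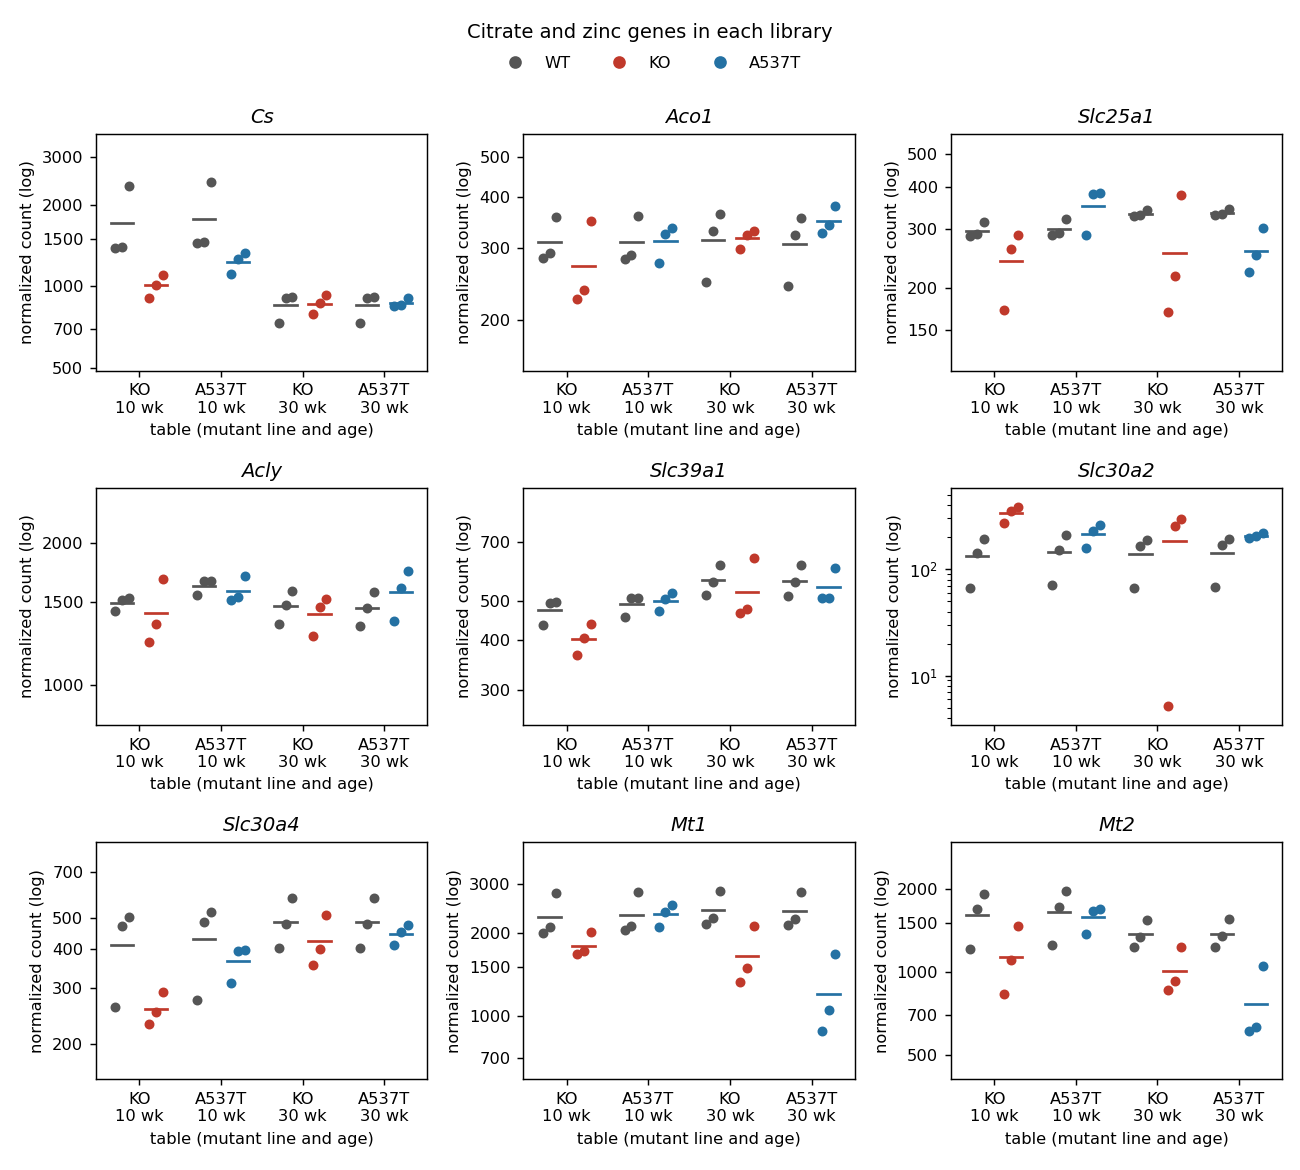
Normalized count (log axis) of each of the 9 genes in every library, by table; points are libraries, lines group means, and the scale is comparable only within a table. Cs was lower in all KO and A537T libraries than in WT at 10 weeks, and Mt1 was lower in all mutant libraries at 30 weeks, in KO by a small margin (2123 against 2153).

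Per kb of exons in the GENCODE annotation, the metallothioneins stood highest in WT. At 10 weeks the mean normalized count per kb was 2731 ± 616 (SD, n = 3) for Mt2 and 1841 ± 345 for Mt1, whose libraries overlapped. Cs (295 ± 95.4) and Acly (283 ± 9.51) came next and also overlapped, then Slc39a1 (201 ± 14.6) and Slc25a1 (137 ± 7.25), each apart from its neighbours. Slc30a4 (75.1 ± 24.0) and Aco1 (69.2 ± 8.93) overlapped, and Slc30a2 had the lowest mean (37.6). Its libraries, from 18.6 to 54.3, lay below those of Aco1 but overlapped Slc30a4, which stood at 47.6 in 10AF.

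At 30 weeks the order was the same except for Cs, which at 148 ± 17.4 stood sixth, overlapping Slc25a1 (154 ± 3.19) and below Acly (278 ± 22.5) and Slc39a1 (239 ± 21.0). Mt2 (2326 ± 270) and Mt1 (1943 ± 300) overlapped again, as did Slc30a4 (88.5 ± 16.2) and Aco1 (69.7 ± 13.2), and Slc30a2 was again lowest (39.2 ± 18.3), here apart from both. The exons annotated for Mt1 together cover all 1246 bases of its gene, introns of the usual transcript included, against 588 bases for Mt2, so the order of these 2 genes per kb depends on the gene model.

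Cs, which encodes citrate synthase, lies on chromosome 10 (128337734 to 128362479, GRCm38). At 10 weeks its normalized count was 1382, 1394 and 2343 in WT and 1016, 1103 and 909 in KO, and every KO library lay below every WT library. The log2 fold change was -0.72 (SE 0.22, n = 3 per group, limma adjusted p = 0.189), and without the WT library 10AF it was -0.84 (limma adjusted p = 0.0499). The fit without 10AF called 2886 of 15044 genes. In the A537T table it was 1454, 1439.7 and 2429 in WT and 1328, 1264 and 1108 in A537T, a log2 fold change of -0.48 (SE 0.22, limma adjusted p = 0.746).

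The level of Cs at 10 weeks went with that of the skeletal muscle genes in both tables. Library 12AF had both the highest Cs and the highest muscle share, and 15AF the lowest of both. With a skeletal muscle score as a covariate the log2 fold change of Cs was -0.35 in KO and -0.044 in A537T (limma adjusted p = 1.00 and 0.991). In KO every library had a lower muscle share than every WT library of that age. The fit could thus not tell muscle content and genotype apart there, and the part of muscle RNA in the difference was not tested otherwise.

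At 30 weeks, where muscle genes were low in all libraries, Cs was 737, 915 and 907 in WT against 932, 792 and 867 in KO. In A537T it was 847, 853 and 907, and the groups overlapped in both lines. The log2 fold changes were 0.022 (SE 0.12) in KO and 0.035 (SE 0.12) in A537T (limma adjusted p = 0.959 and 0.908). The effect at 30 weeks minus that at 10 weeks was 0.74 in KO (SE 0.27, limma adjusted p = 0.305) and 0.52 in A537T (SE 0.26, limma adjusted p = 0.456), with 0.00% of 15016 and 15113 tested genes called for such a difference and 12.8% and 12.2% at an unadjusted p under 0.05.

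Aco1 encodes the cytosolic aconitase, which without its iron-sulphur cluster acts as an iron regulatory protein. It lies on chromosome 4 (40143081 to 40198338). Its groups overlapped in all 4 tables, with WT libraries at 242 to 363 and mutant libraries at 226 to 380.1. The log2 fold changes were -0.22 (SE 0.20) and 0.012 (SE 0.16) for KO and A537T at 10 weeks and 0.032 (SE 0.16) and 0.20 (SE 0.16) at 30 weeks, and the limma adjusted p ranged from 0.549 to 0.990.

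Slc25a1 encodes the mitochondrial citrate carrier, which exports citrate to the cytosol, and lies on chromosome 16 (17925223 to 17928219). At 30 weeks it was 329, 333 and 343 in the WT libraries of the A537T table and 250.1, 302 and 223 in the A537T libraries 7AF, 8AF and 9AF. Every A537T library was below WT, though the groups overlapped once scaled to the same total, and the log2 fold change was -0.38 (SE 0.14, limma adjusted p = 0.315). In KO it was 169.7, 377 and 217 in 4AF, 5AF and 6AF against 327 to 341 in WT, so 5AF lay above all WT libraries and the other 2 below (log2 fold change -0.47, SE 0.27, limma adjusted p = 0.558).

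Within each mutant group at 30 weeks the libraries lowest in Slc25a1 were those that held seminal vesicle genes. In A537T, 8AF, which held almost none, was also below WT. Without 5AF the log2 fold change in KO was -0.79 (limma adjusted p = 0.0275), and without 8AF that in A537T was -0.50 (limma adjusted p = 0.0482), so both became calls when the library without seminal vesicle genes was left out. These fits called 944 of 14732 and 1224 of 14801 genes. With a seminal vesicle score as a covariate the values were 0.14 in KO and -0.16 in A537T (limma adjusted p = 0.945 and 0.910). Of the mutant libraries only 5AF in KO and 8AF in A537T held almost none of these genes, as all WT libraries did. Telling content and genotype apart thus rested on 1 library per mutant group. The part of seminal vesicle RNA in this difference was not tested otherwise.

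At 10 weeks Slc25a1 was 314, 289.8 and 285 in WT against 261, 288 and 171 in KO, which overlapped (log2 fold change -0.33, SE 0.21, limma adjusted p = 0.395). In A537T it was 287, 382 and 384 against 287 to 320.0 in WT, so that 1 library lay inside the WT range and the other 2 above it (log2 fold change 0.22, SE 0.16, limma adjusted p = 0.770). The A537T effect at 30 weeks minus that at 10 weeks was -0.60 (SE 0.21, limma adjusted p = 0.286).

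Acly encodes ATP citrate lyase, which splits cytosolic citrate into acetyl-CoA for lipid synthesis, and lies on chromosome 11 (100476353 to 100528000). Over all libraries its WT values lay at 1333 to 1665 and its mutant values at 1233 to 1746, and the groups overlapped in every table. The log2 fold changes were -0.086 (SE 0.14) and -0.038 (SE 0.12) in KO and A537T at 10 weeks and -0.051 (SE 0.11) and 0.11 (SE 0.12) at 30 weeks (limma adjusted p = 0.710 to 0.956). The ratio of Acly to Cs within a library had a median at 10 weeks of 1.49 in KO against 1.03 in its WT libraries, and of 1.28 in A537T against 1.08. At 30 weeks the medians were 1.60 in KO against 1.75 and 1.90 in A537T against 1.73. The lowest ratio of the KO table at 10 weeks was 0.654 in 12AF, the WT library richest in muscle genes and highest in Cs. The part of muscle RNA in the ratios at 10 weeks was not tested.

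Slc39a1 encodes ZIP1, a plasma membrane zinc importer, and lies on chromosome 3 (90248172 to 90253612). It was 435, 497 and 493 in WT and 436, 404 and 367 in KO at 10 weeks, where 13AF lay just above the lowest WT library (log2 fold change -0.24, SE 0.13, limma adjusted p = 0.326). The other 3 log2 fold changes were 0.030 (SE 0.12) in A537T at 10 weeks, -0.11 (SE 0.15) in KO at 30 weeks and -0.059 (SE 0.12) in A537T at 30 weeks, all with overlapping groups. At 30 weeks it was higher in 5AF (638) and 8AF (604) than in 4AF (477), 6AF (465), 7AF (508) and 9AF (507), with WT at 515 to 616.

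Slc30a2 encodes ZnT2, which loads zinc into vesicles of secretory cells, and lies on chromosome 4 (134343181 to 134354484). At 10 weeks it was 193.7, 142 and 66.3 in WT and 269.8, 354 and 388 in KO, so every KO library exceeded WT; groups lay apart in this direction for 11.7% of all tested genes and in the other for 14.3%. The log2 fold change was 1.44 (SE 0.38, limma adjusted p = 0.183) and the ratio of group means was 2.52. In A537T it was 263, 226 and 159 against 210.3, 151 and 70.3 in WT, which overlapped (log2 fold change 0.69, SE 0.40, limma adjusted p = 0.754). Of the genes tested there, 5.58% lay apart upward and 6.34% downward.

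Seminal vesicle genes were present in all 3 KO libraries at 10 weeks and almost absent from 12AF, the WT library with the lowest Slc30a2. The A537T libraries held 0.0375 to 0.192% of them with Slc30a2 at 159 to 263, above the 151 in 11AF, which held 1.71% in that table. The muscle share also lay apart between KO and WT at this age. With a seminal vesicle score as a covariate the log2 fold change in KO was 0.78 (limma adjusted p = 0.831). Every KO library held a higher share of these genes than every WT library, so the fit could not tell this content and genotype apart. DESeq2 on the recovered counts called Slc30a2 in KO at 10 weeks, with a log2 fold change of 1.34 (DESeq2 adjusted p = 0.0199), and edgeR called no gene there. Without 10AF the limma value was 1.77 (limma adjusted p = 0.0255). DESeq2 called 715 of 15089 genes there, and limma without 10AF called 2886 of 15044.

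At 30 weeks Slc30a2 was 65.9, 188.9 and 164 in WT against 296, 5.14 and 254 in the KO libraries 4AF, 5AF and 6AF. Library 5AF, which like the WT libraries held almost no seminal vesicle genes, lay far below all other libraries of the series. The other 2 KO libraries lay above every WT library. The log2 fold change of -0.73 (SE 1.43, limma adjusted p = 0.875) rests on 5AF: without it the value was 1.10 (limma adjusted p = 0.184), and the mean was higher in KO (185) than in WT (139.7). The sign thus depended on the scale, with 0.41 in both edgeR and DESeq2.

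In A537T at 30 weeks Slc30a2 was 205, 219.8 and 197 in 7AF, 8AF and 9AF against 67.4, 193 and 169 in WT. All 3 libraries lay above WT, the lowest at 197 just over 193, including 8AF, which held almost no seminal vesicle genes (log2 fold change 0.67, SE 0.37, limma adjusted p = 0.456). Groups lay apart upward for 9.18% of tested genes in this table and downward for 9.40%.

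Slc30a4 encodes ZnT4, another exporter that carries zinc into vesicles, and lies on chromosome 2 (122681233 to 122702663). At 10 weeks it was 261, 469.7 and 504 in WT and 291, 232 and 253 in KO. The WT library 10AF lay within the KO range, and without it the log2 fold change of -0.62 (SE 0.26, limma adjusted p = 0.261) became -0.92 (limma adjusted p = 0.0214). The fit without 10AF called 2886 of 15044 genes. In the other 3 comparisons the groups overlapped, with log2 fold changes of -0.18 (SE 0.26) in A537T at 10 weeks and -0.20 (SE 0.19) in KO and -0.11 (SE 0.15) in A537T at 30 weeks.

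The ratio of Slc30a2 to Slc30a4 within a library needs no scaling between libraries, though 10AF stood at 0.742 in the KO table and at 0.763 in the A537T table. The KO libraries of 10 weeks had ratios of 0.926 to 1.53, above WT (0.132, 0.301 and 0.742), and the A537T libraries had 0.511 to 0.664, inside the range of WT in their own table (0.134 to 0.763). In the tables of 30 weeks the A537T ratios of 0.453 to 0.481 overlapped WT (0.117 to 0.48), and in KO 0.834, 0.0101 and 0.636 in 4AF, 5AF and 6AF.

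**Figure D2:**
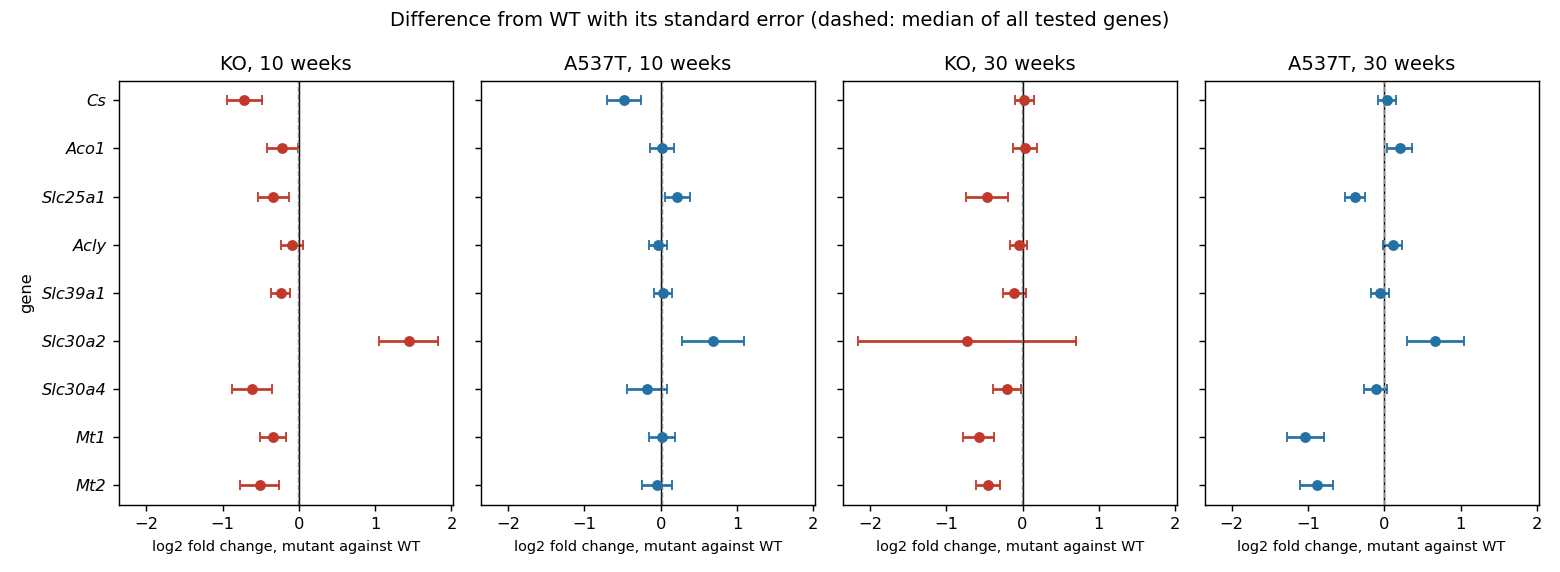
Log2 fold change of each gene against the WT libraries of its table on the scale log2(normalized count + 1), with bars of 1 standard error from limma, in the 4 comparisons. No value passed an adjusted p of 0.05; Slc30a2 in KO at 30 weeks has an SE of 1.43 because of library 5AF.

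Mt1 and Mt2 encode the metallothioneins found in most tissues and lie beside each other on chromosome 8 (94179082 to 94180327 and 94172664 to 94173568). They are close paralogs, so reads that fit both could be divided between them in the authors' counting. At 30 weeks Mt1 was 2132, 2817 and 2244 in WT and 1054, 1678 and 882 in the A537T libraries 7AF, 8AF and 9AF. Mt2 was 1233, 1547 and 1347 in WT and 629, 1051 and 612 in A537T.

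All A537T libraries lay below all WT libraries for both genes. The log2 fold changes were -1.04 for Mt1 (SE 0.24, limma adjusted p = 0.246) and -0.89 for Mt2 (SE 0.22, limma adjusted p = 0.255), and the ratios of group means were 0.502 and 0.555. DESeq2 on the recovered counts called both, with log2 fold changes of -0.99 and -0.84 (DESeq2 adjusted p = 0.00583 and 0.0173), and edgeR called neither. DESeq2 called 472 of 14789 genes in this comparison.

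In KO at 30 weeks Mt1 was 1322, 2123 and 1491 in 4AF, 5AF and 6AF against 2153, 2848 and 2260.2 in WT. The groups did not overlap, with 5AF just below the lowest WT library, and when scaled to the same total they overlapped. Mt2 was 861, 1229.2 and 925 against 1227, 1540.2 and 1337, so that 5AF lay just inside the WT range. The log2 fold changes were -0.58 (SE 0.20, limma adjusted p = 0.410) and -0.46 (SE 0.16, limma adjusted p = 0.416). Of all tested genes, 8.41% lay apart downward and 7.92% upward in this comparison.

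Within both mutant groups at 30 weeks the libraries with seminal vesicle genes were the low ones. Without 8AF the A537T log2 fold changes were -1.30 for Mt1 and -1.14 for Mt2 (limma adjusted p = 0.00537 and 0.0041), and without 5AF those in KO were -0.77 and -0.61 (limma adjusted p = 0.0285 and 0.0352). These fits called 1224 of 14801 and 944 of 14732 genes. Library 8AF, with seminal vesicle genes almost absent, was still below WT for both genes in A537T. The share of luminal genes was below WT in 7AF and 9AF but inside its range in 8AF, and that of macrophage and lymphocyte genes was above WT in all 3. With the seminal vesicle score as a covariate the A537T values were -0.52 and -0.40 (limma adjusted p = 0.569 and 0.572) and the KO values -0.18 and -0.15. As for Slc25a1, telling content and genotype apart rested on 8AF and 5AF. With an adipocyte score the Mt1 and Mt2 values were -0.93 and -0.79 in A537T (limma adjusted p = 0.113 and 0.125).

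Other cell type markers also moved with these libraries. All 11 adipocyte markers had positive log2 fold changes in A537T at 30 weeks (median 1.24), and they took 0.0630% in 7AF, 0.00670% in 8AF and 0.0768% in 9AF against at most 0.0238% in WT. Smooth muscle genes took 0.350%, 0.196% and 0.376% in the same libraries, where WT reached 0.266%. In KO the adipocyte share was 0.0131% in 4AF, 0.0675% in 5AF and 0.0256% in 6AF with WT up to 0.0235%, and smooth muscle genes took 0.362%, 0.238% and 0.326% with WT up to 0.264%. The part of luminal, macrophage and lymphocyte, and smooth muscle genes in the metallothionein differences was not tested.

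**Figure D3:**
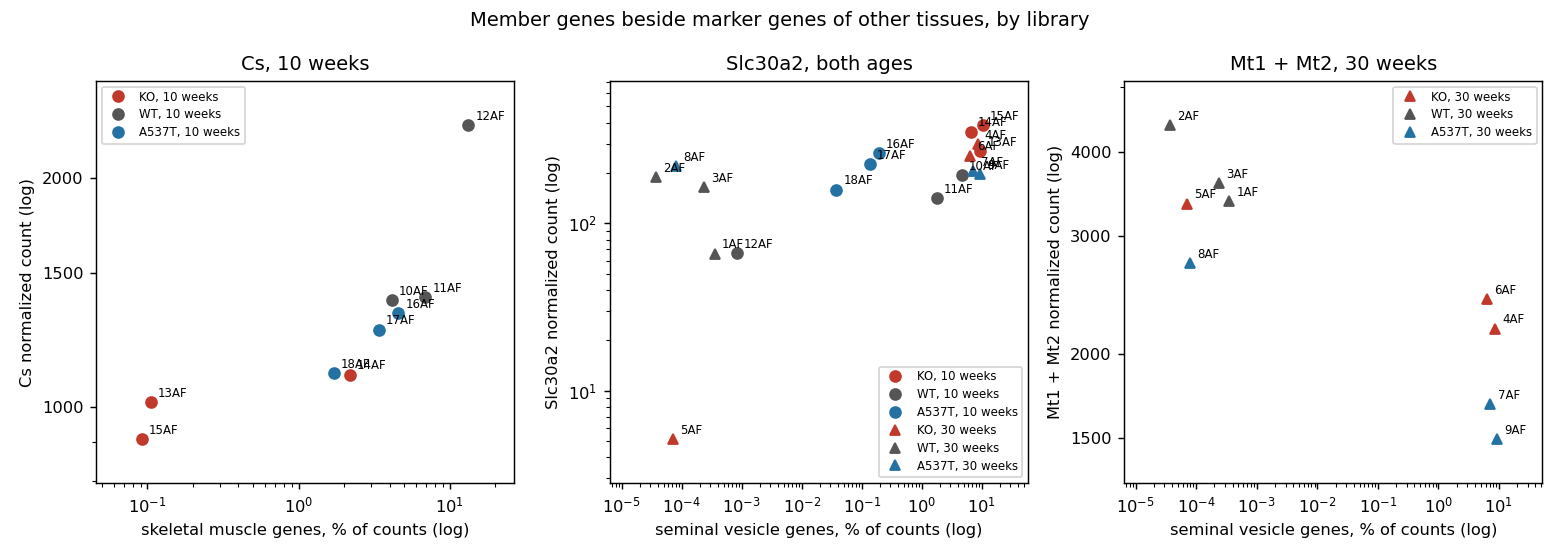
Normalized count of Cs at 10 weeks against the share of skeletal muscle genes, and of Slc30a2 at both ages and of Mt1 plus Mt2 at 30 weeks against the share of seminal vesicle genes, on log axes, with library names; WT libraries are drawn from the KO tables, and levels from separate tables are on separate scales. Library 5AF stands alone at 5.14 for Slc30a2, and 7AF and 9AF have the lowest metallothionein sums.

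At 10 weeks Mt1 was 1994, 2100.5 and 2787 in WT against 1673, 2014 and 1712 in KO, and Mt2 was 1210.1, 1687 and 1921 against 1102, 1468 and 828. Both pairs of groups overlapped, with 2 of the 3 KO libraries below all WT libraries for each gene (log2 fold change -0.34, SE 0.17, and -0.52, SE 0.26; limma adjusted p = 0.305 and 0.308). With the skeletal muscle score as a covariate they were -0.015 and 0.21, in a fit that could not tell muscle content and genotype apart. In A537T at 10 weeks Mt1 was 2528, 2378 and 2103 and Mt2 1664, 1694 and 1370.0, inside the WT range, and the log2 fold changes were 0.020 (SE 0.17) and -0.044 (SE 0.20).

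The A537T effect at 30 weeks minus that at 10 weeks was -1.06 for Mt1 (SE 0.31, limma adjusted p = 0.262) and -0.84 for Mt2 (SE 0.31, limma adjusted p = 0.317). Without 8AF both passed, at -1.32 and -1.10 (limma adjusted p = 0.0206 and 0.0464), among 442 of 15132 genes called. In KO the same differences were -0.24 (SE 0.27) and 0.061 (SE 0.32), with limma adjusted p = 0.764 and 0.958.

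Mt1 exceeded Mt2 in every library. At 10 weeks the ratio of Mt1 to Mt2 spanned 1.37 to 2.07 among KO libraries with WT at 1.25 to 1.65, and 1.40 to 1.54 among A537T libraries with WT at 1.23 to 1.63. For 30 weeks the spans were 1.54 to 1.73 (KO) beside 1.69 to 1.85 (WT), and 1.44 to 1.68 (A537T) beside 1.67 to 1.82 (WT). These ratios overlapped WT in all 4 tables. The sum of both genes at 30 weeks was 2183 to 3352 in KO against 3381 to 4388 in WT, and 1494 to 2729 in A537T against 3365 to 4364. At 10 weeks it was 2540.1 to 3482.5 in KO, where WT lay at 3204 to 4708, and 3473 to 4192 in A537T, where WT lay at 3298 to 4777.

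**Figure D4:**
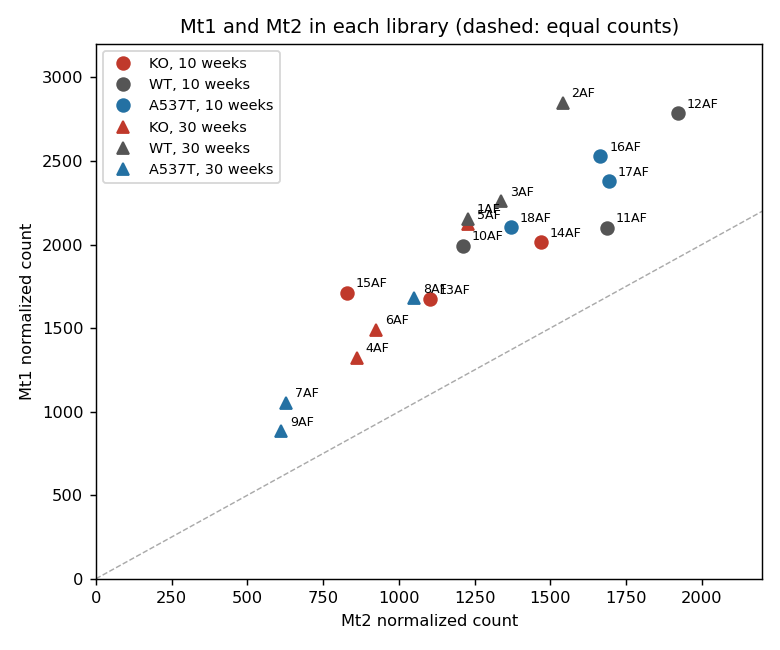
Normalized count of Mt1 against that of Mt2 in each of the 18 libraries, with library names; the dashed line marks equal counts, WT libraries are drawn from the KO tables, and levels from separate tables are on separate scales. The A537T libraries 7AF and 9AF lie lowest, at 1054 and 882 for Mt1, and every library lies on the side of more Mt1.

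Of the genes around citrate, those that supply its precursors and those that oxidize it were mostly lower at 10 weeks. In KO, 11 of 13 supply genes and 7 of 7 oxidation genes had negative log2 fold changes, with medians of -0.66 and -0.74, beside -0.0061 for all tested genes. In A537T it was 11 of 13 and 6 of 7, with medians of -0.52 and -0.43 beside 0.011. None passed the adjusted p in limma. The 32 skeletal muscle markers were lower in 32 of 32 cases in both lines at 10 weeks, with medians of -6.45 and -1.64.

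Ogdh, a subunit of the oxoglutarate dehydrogenase complex and the most abundant of these oxidation genes, was 1703, 1727 and 2229 in WT and 1443, 1405 and 1308 in KO at 10 weeks. The groups lay apart (log2 fold change -0.43, SE 0.14, limma adjusted p = 0.195). In A537T it was 1782, 1763 and 1475 against 1837, 1829.6 and 2370.1, also apart (log2 fold change -0.26, SE 0.16, limma adjusted p = 0.765). As for Cs, library 12AF, richest in muscle genes, was the highest.

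Pdha1, a subunit of pyruvate dehydrogenase and the most abundant supply gene, was also lower in every KO and A537T library at 10 weeks (log2 fold changes -0.42, SE 0.18, and -0.52, SE 0.19; limma adjusted p = 0.264 and 0.746). At 30 weeks 11 of 13 supply genes were higher in KO and 9 of 13 in A537T, with medians of 0.17 and 0.10, and 2 and 3 of the 7 oxidation genes were higher, with medians of -0.033 and -0.073. Ogdh had a log2 fold change of -0.16 (SE 0.11) in KO and of -0.18 (SE 0.096) in A537T, where all 3 libraries lay below WT. Pdha1 had 0.039 (SE 0.14) and 0.10 (SE 0.15), with overlapping groups.

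Of 5 genes for citrate transport across the plasma membrane, 4 were matched and only Ank, which encodes an exporter of pyrophosphate also described for citrate and ATP, was tested in all 4 comparisons. It was 811, 1830 and 1969.8 in WT against 888, 944 and 644 in KO at 10 weeks, so WT library 10AF lay within the KO range (log2 fold change -0.81, SE 0.35, limma adjusted p = 0.266). Without 10AF it passed, at -1.22 (limma adjusted p = 0.0214), among 2886 of 15044 genes called. At 30 weeks the log2 fold change was -0.48 (SE 0.18) in KO and 0.027 (SE 0.21) in A537T, and in A537T at 10 weeks -0.27 (SE 0.38). In KO at 30 weeks it was lower in 4AF (1148) and 6AF (1268) than in 5AF (1657).

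Genes of fatty acid and cholesterol synthesis, which use the acetyl-CoA that Acly makes, were lower in 11 of 13 cases in KO at 10 weeks (median -0.38) and in 10 of 13 in KO at 30 weeks (median -0.27). In A537T 10 of 13 were higher at 10 weeks and 8 of 13 at 30 weeks, with medians of 0.16 at both ages, and none of the 13 passed the adjusted p in any comparison. Scd2, a fatty acid desaturase and the most abundant of them, was 5362, 8037 and 8507 in WT and 4938, 5069 and 3649 in KO at 10 weeks (log2 fold change -0.67, SE 0.23, limma adjusted p = 0.208), and without 10AF it passed, at -0.88 (limma adjusted p = 0.0275). At 30 weeks it was 5275, 9437 and 6255 in 4AF, 5AF and 6AF and 6706, 9542 and 5603 in 7AF, 8AF and 9AF, against 8544 to 9505 in WT. In both mutant groups the library without seminal vesicle genes was the highest, and leaving that library out gave calls of -0.64 in KO and -0.54 in A537T (limma adjusted p = 0.0262 and 0.0370). These fits called 944 of 14732 and 1224 of 14801 genes.

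The lists of other zinc transporters had medians between -0.16 and 0.17, beside -0.0067 to 0.011 for all tested genes. Of 11 tested ZIP genes, 4 and 6 were higher in KO and A537T at 10 weeks and 4 and 3 at 30 weeks, with medians of -0.13, 0.17, -0.050 and -0.16. Of 6 tested ZnT genes, 3, 0, 2 and 1 were higher, with medians of 0.0074, -0.15, -0.100 and -0.068. The most abundant of them, Slc39a7, which releases zinc from the endoplasmic reticulum, had log2 fold changes of -0.063, -0.18, -0.018 and -0.16 (SE 0.086 to 0.12), and Slc30a7, a ZnT of the Golgi region, 0.23, -0.050, 0.039 and 0.13 (SE 0.12 to 0.15).

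The metal response list, which holds Mtf1 and genes that respond to metals and oxidants, had medians near 0 at 30 weeks. Of its 5 tested genes 2 were higher and 3 lower in both KO and A537T at 30 weeks, with medians of -0.079 and -0.046 against -0.52 and -0.96 for Mt1 and Mt2. The lowest in both was another metallothionein, Mt3, at -0.36 and -0.24. A response to metals was not tested by this list. Gclc, the catalytic subunit of glutathione synthesis and its most abundant gene, had log2 fold changes of 0.14 (SE 0.15) in KO and 0.14 (SE 0.16) in A537T at 30 weeks and 0.19 (SE 0.13) and -0.052 (SE 0.14) at 10 weeks.

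**Figure D5:**
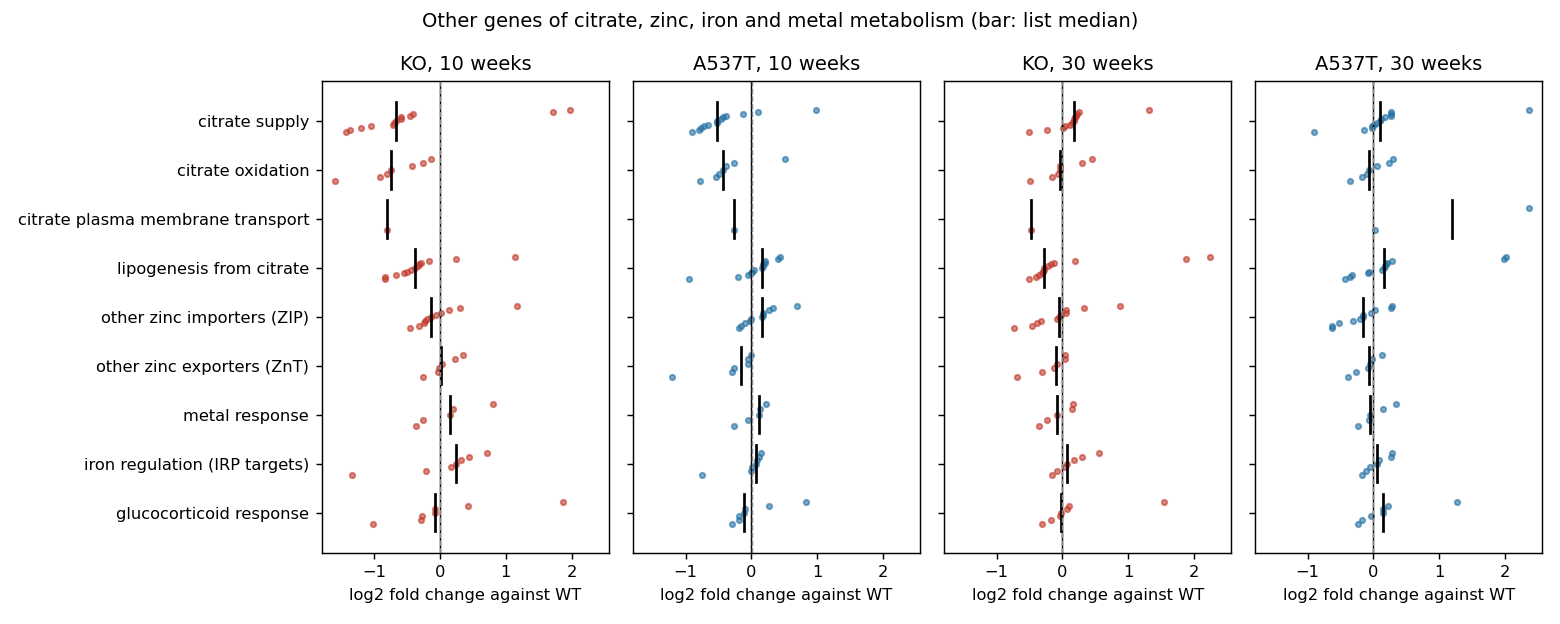
Log2 fold change against WT of the tested genes of each list (points) and their median (bar) in the 4 comparisons; dashed lines mark the median of all tested genes. Citrate supply and oxidation genes lie mostly below 0 at 10 weeks, with medians from -0.74 to -0.43, and around 0 at 30 weeks.

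The genes most like each of the 9 were taken from 9998 genes over the 18 libraries, after centring log2 values within each age. These correlations are descriptions, since libraries of one group share their genotype and some share muscle or seminal vesicle content. Mt1 and Mt2 had a Pearson correlation of 0.93 with each other, and the genes nearest to them were Ormdl3 for Mt1 (0.93) and Glt1d1 and Araf for Mt2 (0.93 each). Nearest to Cs were Hipk3 (0.96) and Ndufa5 (0.95), a subunit of respiratory complex I.

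Slc30a4 was nearest to Ttc39c (0.96) and Otud7b (0.95), Slc39a1 to Mfsd4a (0.92) and Cercam (0.91), and Slc25a1 to Pcolce (0.90) and Fam102b (0.89). Slc30a2 was nearest to Rec8 (0.90) and Slc7a5 (0.86), an amino acid transporter. Acly was nearest to Arhgap24 (0.80) and Fasn (0.78), the fatty acid synthase that uses its product, and Aco1 to Stx7 (0.77) and Hsd17b12 (0.73). Among the 9 genes, the highest correlations after that of Mt1 and Mt2 were 0.80 for Slc25a1 with Slc39a1 and 0.76 for Slc39a1 with Slc30a4, and the lowest was -0.68 for Slc39a1 with Slc30a2.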

How the data were processed

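RNA sequencing of 18 prostate libraries was used. The labels and methods name Trim Galore 0.4.1, cutadapt 1.18, STAR 2.7.3a, GRCm38.p6, GENCODE vM24, Salmon, tximport and DESeq2. The authors deposited normalized counts, a signal made of estimated gene counts over 1 DESeq2 size factor per library and table. Dividing out that factor gave whole numbers within 0.1, but these are not raw reads: a WT library had different whole numbers in its 2 tables, by a factor that was particular to each gene and shared by the WT libraries. Such a factor cancels within a table. Column names are library numbers without replicate. Groups follow from the table a column is in, matched by row means to the study's supplement, and from the columns shared by both tables of an age, which are WT.

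Each mutant group was compared with WT using limma 3.58.1 in R 4.3.3 (lmFit, eBayes with a mean trend) on log2(normalized count + 1) for genes with a mean of at least 10, with Benjamini-Hochberg adjustment over all genes and a threshold of 0.05. Age differences were interaction terms over 12 columns. The whole numbers were given to edgeR 4.0.16 and DESeq2 1.42.0 as alternatives. Other alternatives were pseudocount 8, minimum means of 1 and 100, scaling to the same total, no mean trend, marker scores as covariates and leaving out each library. Only the limma fit of a mutant group against WT was tested on simulated data, in which genes varied independently and shared no tissue content. The edgeR, DESeq2, covariate and age difference fits were not tested in this way.

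Of 55469 gene IDs, 54450 matched GENCODE vM21 exactly and 55107 without version. Genes were named by rule: the 9 members, the most abundant tested gene of each other list, any gene passing the threshold, and the 2 genes most correlated with each member among those with a mean of at least 50. Tfrc, Slc40a1, Sgk1, Tsc22d3 and Mt3 were chosen after their values were seen. 1 gene of the oxidation list is not reported here and was left out of its counts. Members and lists were chosen with earlier results of these data known. Promoters are RefSeq windows of GRCm38.p6. Figures were drawn with Python 3.11.15 and matplotlib 3.10.9. The authors' own fold changes and s-values were not used.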

Additional observations from a re-analysis of the deposited data

How the results depend on the processing

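No paired analysis was possible because the columns carry no replicate number. With 3 libraries a group, of which 1 often stands apart in muscle or seminal vesicle genes, a difference of the size seen for Mt1 or Cs can pass or miss the threshold by 1 library. With all libraries, none of the 9 genes was called by limma, edgeR or a covariate fit. Scaling to the same total moved the median of all genes to 0.20 in KO and 0.15 in A537T at 10 weeks. Genes called (0 in each limma comparison) were 715 of 15089 and 87 of 15131 with DESeq2 in KO and A537T at 10 weeks. At 30 weeks they were 285 of 14729 and 472 of 14789, with 1, 0, 0 and 2 of the 9 over the 4 comparisons. Without a mean trend they were 1 and 2 at 10 weeks, with a minimum mean of 1 they were 2 in A537T at 10 weeks, with the seminal vesicle covariate 1 in A537T at 10 weeks and 3 at 30 weeks, and with the adipocyte covariate 71 in A537T at 30 weeks. Scaled to the same total, the groups lay apart for 2 of the 9 (Cs and Mt1) in A537T at 10 weeks (12.8% of all tested genes), for 0 in KO at 30 weeks (14.1%) and for 3 in A537T at 30 weeks (17.2%), where Slc25a1 no longer lay apart.

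Leaving out each library in turn gave 0 to 2886 called genes in KO at 10 weeks. Of 15044 tested genes 2886 were called without 10AF, with Cs, Slc30a2 and Slc30a4 among them, and 185 of 15082 without 14AF. In A537T at 10 weeks it gave 0 to 50 (50 of 15029 without 10AF). At 30 weeks it gave 0 to 944 in KO (944 of 14732 without 5AF) and 0 to 1224 in A537T (1224 of 14801 without 8AF). Of the 9 genes it called 0 to 3, 0 to 0, 0 to 3 and 0 to 3. The age differences gave 0 to 156 genes in KO (156 of 15026 without 14AF) and 0 to 442 in A537T (442 of 15132 without 8AF), with 0 and 0 to 2 of the 9. Groups lay apart for 2 to 6, 1 to 4, 1 to 6 and 4 to 6 of the 9. Groups of 2 and 3 lie apart more often, here for 30.4 to 56.1%, 17.3 to 39.4%, 21.3 to 43.2% and 23.9 to 46.4% of all tested genes.

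Of 756 values of single genes under other settings, 699 kept their direction and side of the threshold, 3 passed it and 54 changed sign, none of them a called value; the cause was not tested. With the adipocyte covariate, values in KO at 10 weeks turned to 0.22 (Aco1), 0.080 (Slc25a1) and 0.14 (Acly), in A537T at 10 weeks to -0.061 (Aco1), -0.013 (Slc30a2), 0.093 (Slc30a4) and 0.087 (Mt2), in KO at 30 weeks to -0.023 (Cs) and in A537T at 30 weeks to -0.0043 (Cs) and 0.0023 (Slc39a1). With the muscle covariate they turned in KO to 0.089 (Slc25a1), 0.21 (Mt2) and 0.080 (Fkbp5), and in A537T to -0.22 (Aco1), 0.020 (Acly), 0.35 (Slc30a4), 0.35 (Mt2), 0.63 (Ank), 0.025 (Ogdh), 0.11 (Slc30a7), -0.099 (Ftl1) and 0.63 (Fkbp5). With the seminal vesicle covariate they turned in A537T at 10 weeks to -0.041 (Mt1), -0.021 (Scd2) and 0.040 (Fkbp5), in KO at 30 weeks to -0.071 (Cs), 0.14 (Slc25a1), 0.14 (Slc39a1), 0.034 (Slc30a4), -0.24 (Pdha1), 0.038 (Scd2), -0.12 (Slc30a7), -0.030 (Gclc) and 0.17 (Fkbp5), and in A537T at 30 weeks to -0.066 (Acly), 0.082 (Slc39a1), -0.20 (Pdha1), 0.062 (Scd2) and -0.10 (Gclc).

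Scaled to the same total they turned in KO at 10 weeks to 0.13 (Acly) and 0.15 (Slc39a7), in A537T at 10 weeks to 0.10 (Acly), 0.095 (Mt2), 0.089 (Slc30a7), 0.086 (Gclc) and 0.038 (Fkbp5), and in the age differences to -0.18 (Acly), -0.088 (Slc39a1) and -0.16 (Mt2) for KO and -0.048 (Slc30a4) for A537T. With edgeR and DESeq2 Scd2 in A537T at 10 weeks was -0.012 and -0.0051 and Slc30a2 in KO at 30 weeks 0.41 and 0.41. Leaving out libraries gave both signs for Acly in KO at 10 weeks (-0.21 to 0.0093). In A537T at 10 weeks it did so for Aco1 (-0.051 to 0.12), Slc39a1 (-0.024 to 0.072), Mt1 (-0.065 to 0.17), Mt2 (-0.23 to 0.096), Ank (-0.67 to 0.0040), Scd2 (-0.20 to 0.14), Slc30a7 (-0.11 to 0.072), Gclc (-0.13 to 0.0087) and Fkbp5 (-0.48 to 0.34). In KO at 30 weeks it did so for Cs (-0.080 to 0.083), Aco1 (-0.13 to 0.15), Acly (-0.11 to 0.027), Slc30a2 (-1.70 to 1.10), Pdha1 (-0.044 to 0.19), Slc39a7 (-0.041 to 0.014) and Slc30a7 (-0.044 to 0.12), and in A537T at 30 weeks for Cs (-0.068 to 0.089), Slc39a1 (-0.14 to 0.0065), Slc30a4 (-0.24 to 0.023), Pdha1 (-0.029 to 0.26) and Ank (-0.17 to 0.20). The age difference did so in KO for Slc25a1 (-0.46 to 0.12), Acly (-0.061 to 0.16), Slc39a1 (-0.015 to 0.21) and Mt2 (-0.15 to 0.27) and in A537T for Slc30a2 (-0.49 to 0.42) and Slc30a4 (-0.10 to 0.36).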

Other observations

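Among 7 iron regulation genes, whose mRNAs are bound by iron regulatory proteins or control them, none passed the adjusted p with limma. The genes named here other than Ftl1 and Fkbp5 were chosen after their values were seen. For Tfrc, the transferrin receptor, the log2 fold changes at 10 weeks were -1.34 (KO) and -0.74 (A537T), the lowest of the list in each. In both lines 5 of the 7 genes were higher at that age, with medians of 0.24 and 0.078. At 30 weeks Tfrc was again the lowest in KO, at -0.16. Slc40a1, the iron exporter, stood at 0.56 in KO at 30 weeks, the highest of the list, whose median was 0.073. Ftl1, the ferritin light chain and the most abundant of the list, was 3705, 3675 and 3699.5 in WT and 3427, 3354 and 3461 in A537T at 30 weeks, lower in every library by a small margin (log2 fold change -0.11, SE 0.084).

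Glucocorticoids induce metallothioneins, and a list of 7 glucocorticoid response genes had medians of -0.079, -0.11, -0.018 and 0.14 for KO and then A537T at the younger age and for KO and then A537T at the older. Fkbp5, its most abundant gene, had log2 fold changes of -0.31 (SE 0.22) in KO and -0.23 (SE 0.13) in A537T at 30 weeks, and without 5AF the KO value passed, at -0.57 (limma adjusted p = 0.0261). The fit without 5AF called 944 of 14732 genes. Sgk1 had the highest values of the list at 1.86 in KO at 10 weeks, 1.54 in KO at 30 weeks and 1.27 in A537T at 30 weeks. In these comparisons 2, 3 and 4 of the 7 genes were higher. The lowest in KO at 10 weeks was Tsc22d3, at -1.02. A response to glucocorticoids, or its part in the metallothionein differences, was not tested by this list.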
